A study of Mus musculus with 8 samples.

Results

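Genes of iron storage, heme breakdown, heme synthesis and iron, heme or porphyrin transport were examined for Nrf2 peaks in muscle satellite cells. The set held 10 genes: Fth1, Ftl1, Hmox1, Blvra, Blvrb, Slc48a1, Slc40a1, Fech, Abcb6 and Tfrc. They are 10 of the 21631 protein-coding genes that a RefSeq gene table places on the chromosomes with peaks. The genes were picked by function, with earlier results of these data known. A peak was assigned to a gene when its summit, the position of highest signal, lay inside the gene or within 50 kb of it on either side. By this rule 6 of the 620 peaks in the deposited lists belonged to the 10 genes.

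The study profiled Nrf2, a transcription factor encoded by Nfe2l2, by chromatin immunoprecipitation with sequencing (ChIP-seq) in satellite cells. These are muscle stem cells, taken here from the hindlimb of C57BL/6J mice and fixed freshly after isolation. Keap1-null and Nrf2-null cells each gave 2 libraries from Nrf2 ChIP and 2 from input chromatin. Keap1 directs Nrf2 to degradation, so the Keap1-null cells lack that control, and in the Nrf2-null cells the protein that the antibody is meant to bind is missing. No wild-type group is among the samples, and no treatment, animal age, Cre driver or deleted exon is given in the labels. Libraries of a group differ in the labels only by bench 1 or 2; whether the benches used different animals is not stated, and differences between such libraries may be technical.

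Each genotype has 1 deposited peak list, which joins its 2 ChIP libraries: 469 peaks in Keap1-null and 151 in Nrf2-null cells. A peak carries the −log10 p of enrichment in each library, where a higher value means stronger evidence of enrichment, and an irreproducible discovery rate (IDR), where a lower value marks a peak that was more reproducible, which reflects both its strength and how alike it ranked in the libraries. These values are the authors'. Fold enrichment and read totals are not among the values, so sequencing depth is unknown and no fold is given. The 363 Keap1-null peaks that do not overlap any Nrf2-null peak are called Keap1-null-only. The lists show where the antibody enriched DNA, not expression, so neither the cell type nor the deletions could be checked from them. Of 30 markers of satellite cells, macrophages, erythroid cells, endothelium and fibro-adipogenic progenitors, 1 had a Keap1-null summit within 50 kb, the satellite cell gene Sdc4 at 37.9 kb, and 0 had an Nrf2-null summit. The shares of all protein-coding genes under the same rule were 3.70% and 0.693%, so these counts are near the background.

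Cells keep iron in ferritin, a hollow shell of heavy and light chains, and recover it from heme by cutting the heme ring. Free iron feeds reactions that make damaging radicals, and macrophages of muscle are known for recycling iron after injury. Nrf2 binds antioxidant response elements together with small Maf proteins, and Bach1, a repressor that heme inactivates, competes for the same elements. Ferritin and heme oxygenase genes are long-known targets of this pair of factors.

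Nrf2 peaks in Keap1-null cells lay at the ferritin genes, at a pair of the 3 genes of heme breakdown and at the lysosomal heme transporter gene. In all, 5 of 10 genes had a Keap1-null summit in the window (Fth1, Ftl1, Hmox1, Blvrb and Slc48a1), beside 3.70% of all protein-coding genes. Hmox1 had 2 peaks and the other 4 genes had 1 each. Slc40a1, Fech, Abcb6, Tfrc and Blvra had 0. None of the 10 genes had an Nrf2-null summit in the window, beside 0.693% of all protein-coding genes, so a count of 0 of 10 is close to what the background gives. All 6 peaks were Keap1-null-only, but so were 363 of the 469 Keap1-null peaks, so this is common to the list. No test was run on these counts, because each list is a single joined result per genotype and the genes were chosen with earlier results of these data known.

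**Figure D1:**
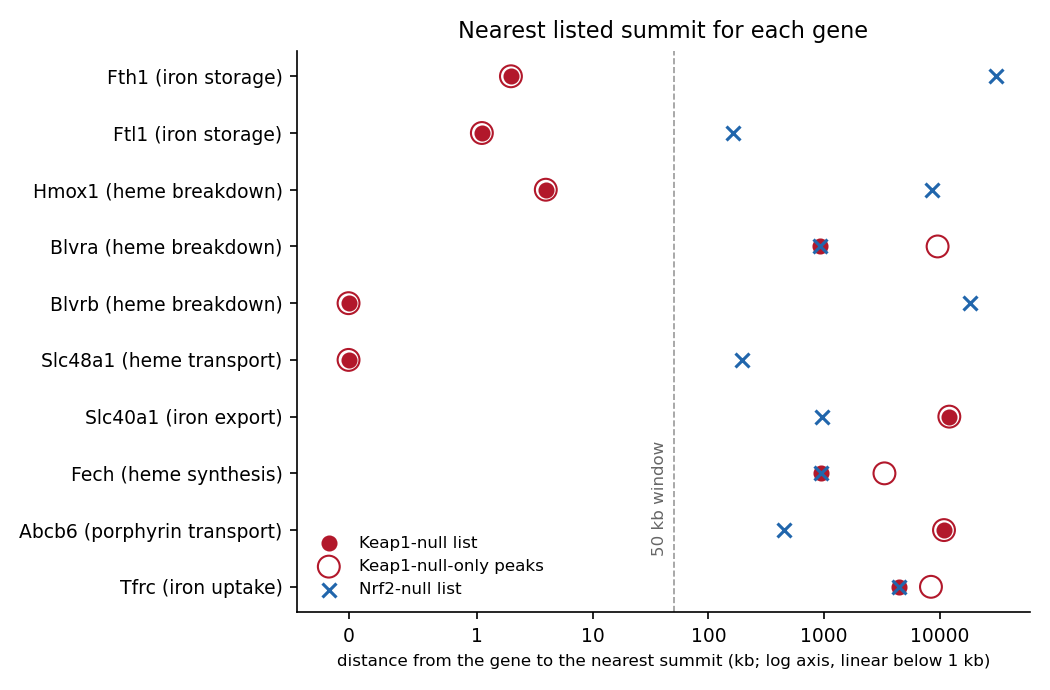
Distance in kb from each of the 10 genes to the nearest summit in the Keap1-null list (filled circles), among Keap1-null-only peaks (open circles) and in the Nrf2-null list (crosses), on a log axis that is linear below 1 kb; a value of 0 means inside the gene. For 5 genes the Keap1-null summit lies left of the 50 kb line, at 3.93 kb or less, and no cross lies left of it.

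The ferritin genes had the strongest peaks of the set. Fth1 encodes the ferritin heavy chain, which oxidises iron for storage (NCBI gene 14319; mm10 chromosome 19, 9980600 to 9985111). Its peak (9978235 to 9978964) had −log10 p of 31.4 in the first library and 26.8 in the second, with an IDR of 0.000336. By the smaller of both values it ranked 27th of the 363 Keap1-null-only peaks. At 730 bp it was the widest of the 6 peaks, and the median Keap1-null-only peak was 428 bp wide.

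How far the Fth1 peak lies from Fth1 depends on which start is taken. The summit was 1962 bp upstream of the first annotated start (position 9980600) and 4008 bp upstream of the other (position 9982646). The 250 bases before the first start held 34.8% G and C and those before the other held 66.8%, beside a median of 52.4% over 32851 annotated start windows. As background, an antioxidant-responsive enhancer well upstream of the promoter has been described for mouse ferritin heavy chain; the table used here does not place it. The next protein-coding gene, Best1, which encodes a chloride channel, was 6.53 kb from the summit.

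Ftl1 encodes the ferritin light chain, which helps iron to mineralise inside the shell (NCBI gene 14325; chromosome 7, 45457944 to 45459886). Its peak (45460743 to 45461212) had −log10 p of 39.8 in the first and 19.4 in the second library, with an IDR of 0.000622. The first-library value was the highest among the 6 peaks, and the second-library value was below that of Fth1. The ferritin peaks therefore changed places between the libraries: Ftl1 ranked 38th and Fth1 60th of 363 by the first library, and Ftl1 67th and Fth1 30th by the second.

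The Ftl1 peak was the one peak of the set with a nearer protein-coding neighbour. Its summit lay 1100 bp upstream of the Ftl1 start and 709 bp from the end of Bax, a gene of cell death on the same strand. That is the end of Bax away from its start, which was 5.91 kb from the summit, so Ftl1 had the nearest annotated start. Gys1, which encodes muscle glycogen synthase, ended 4.37 kb from the summit and started 26.1 kb from it. This was the most crowded site, with 10 protein-coding genes within 50 kb of the summit, and nearness does not tell which of them the site acts on.

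**Figure D2:**
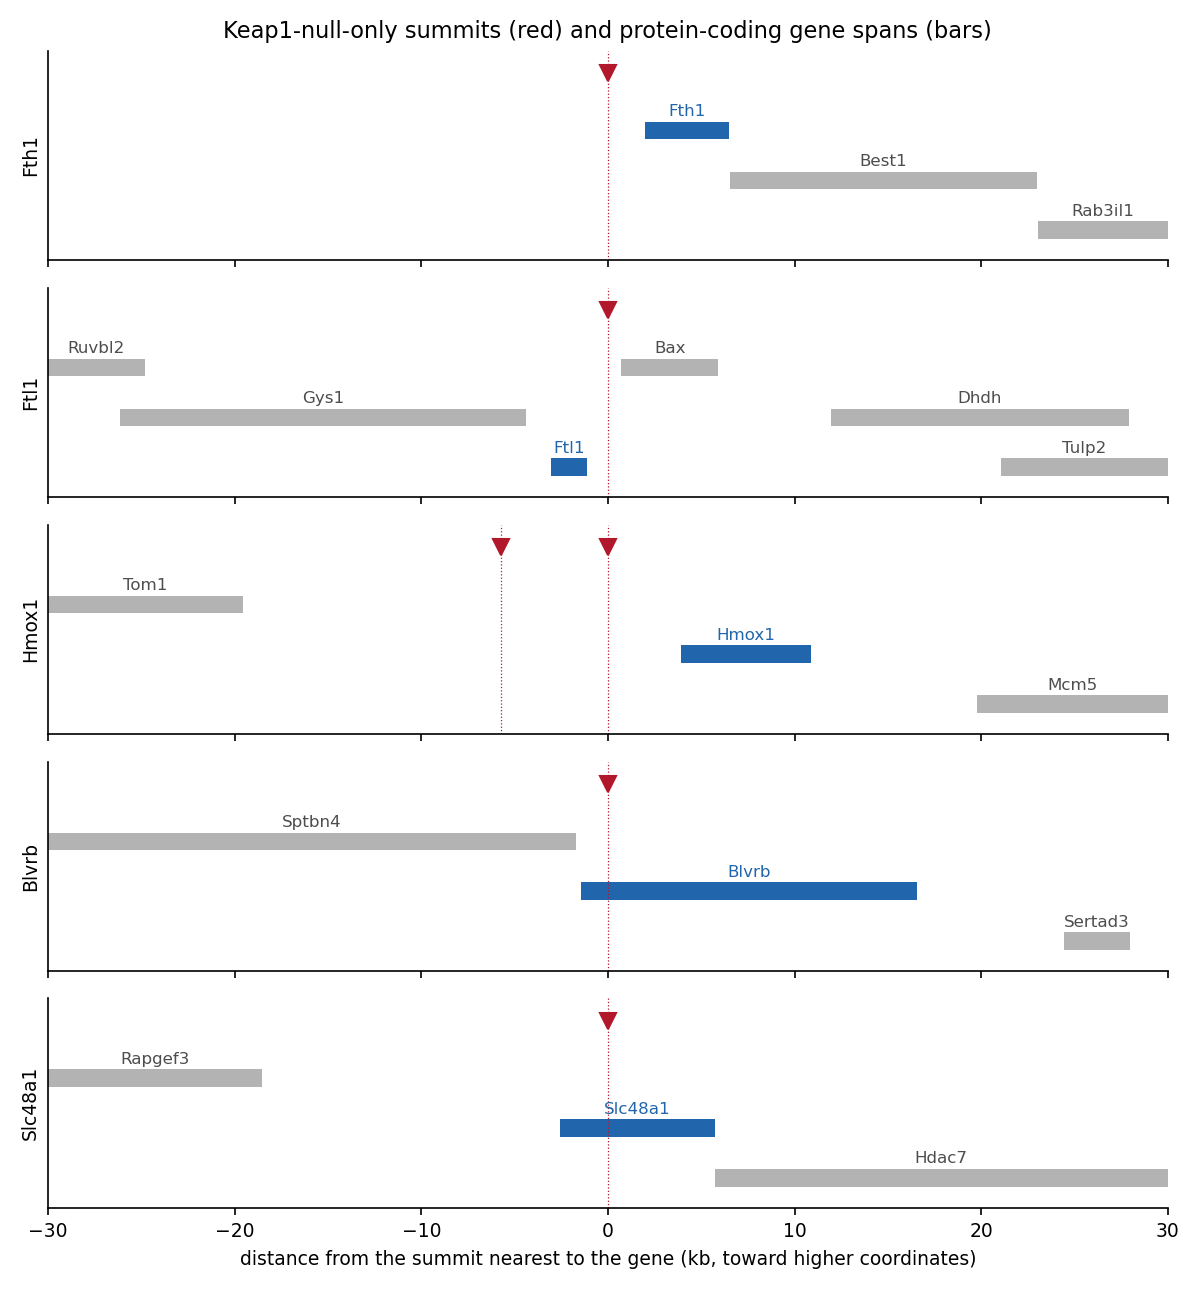
Protein-coding gene spans (the described gene blue, neighbours grey) and Keap1-null-only summits (red triangles, dotted lines) around 5 genes, as distance in kb from the summit nearest to the gene; row height carries no value. Summits stand outside Fth1, Ftl1 and Hmox1 and inside Blvrb and Slc48a1, and Bax lies closer to the Ftl1 summit than Ftl1 does.

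Hmox1 was the one gene of the set with a pair of sites. It encodes heme oxygenase 1, the stress-inducible enzyme that opens the heme ring and releases iron, carbon monoxide and biliverdin (NCBI gene 15368; chromosome 8, 75093618 to 75100593). The proximal peak (75089519 to 75089860) lay 3.93 kb from the gene, at −log10 p of 19.9 (first library) and 11.5 (second library), with an IDR of 0.00573. The distal peak (75083668 to 75084106) lay 9.67 kb from the gene on the same side, with 17.3 and 12.5 and an IDR of 0.00566.

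Neither Hmox1 site was stronger in both libraries: the proximal peak had the higher value in the first library and the distal peak in the second. Both were the weakest of the set by IDR. Their summits were 5.75 kb apart, with 5412 bp between the edges of the peaks. A Keap1-null-only peak with another within 10 kb was uncommon in the list, at 27 of 363 peaks (7.44%), and 63 of 21631 protein-coding genes (0.291%) had 2 or more Keap1-null-only summits within 50 kb. As background, mouse Hmox1 is known for a pair of upstream enhancers, called E1 and E2, that carry several antioxidant response elements. No other protein-coding gene was closer to either summit: Tom1, which encodes an endosomal sorting protein, was the next nearest to both, 13.8 kb from the distal and 19.6 kb from the proximal one. Mcm5, a replication helicase subunit gene on the other side of Hmox1, was 19.8 kb from the proximal one. A pseudogene, Gm2059, was nearer to the distal summit than Hmox1.

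Of the biliverdin reductase genes, Blvrb had a peak and Blvra did not. A Keap1-null summit in the window was found for 3.70% of all protein-coding genes, so having none is the common case. The Blvrb peak (chromosome 7, 27449189 to 27449614; NCBI gene 233016, 27447978 to 27465981) lay inside the gene, with −log10 p of 25.6 in the first library and 13.1 in the second and an IDR of 0.00313. The summit was 1432 bp downstream of the first annotated start and 3008 bp upstream of the other. The span of Sptbn4, a spectrin gene on the opposite strand, came within 1.71 kb of the summit on the side of its starts, and its nearest start window put a start 2.82 kb from the summit. Blvra (NCBI gene 109778; chromosome 2, 127070629 to 127097084) was 923 kb from the nearest Keap1-null peak. That peak was shared, with 22.7 and 19.8 in the Keap1-null list and 27.5 and 24.1 in the Nrf2-null list. The nearest Keap1-null-only summit was 9582 kb away from Blvra.

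The bases in front of annotated starts were searched for the core of the antioxidant response element, because 3 of the peaks lie within 2 kb of a start of their gene. None of the 6 peaks overlapped a start window of its own gene, where one is given: the gaps were 606 bp for Ftl1, 1161 bp for Blvrb and 1385 bp for Fth1, so the sequence under the peaks was not analysed here. RefSeq (GRCm38.p6) start windows, 250 bases before to 50 after a start, were matched for 6 of the 10 genes, in 9 windows: Fth1, Ftl1, Blvra, Blvrb, Abcb6 and Tfrc. The core was written TGACNNNGC, with N for any base, and searched on both strands. It was in 1 of the 9 windows, that of Blvra, and in 12.4% of all 32851 windows, so this count is close to the background. The 250 bases before the start are shown for Ftl1, whose window is closest to its peak, and for the reductases Blvra and Blvrb. Capitals mark matches to the looser TGANNNNGC, which holds every TGACNNNGC. It was in 3 of 9 windows and 41.3% of all, so it too was not more frequent than in the background.
Ftl1 (chr7:45459887-45460136, minus strand): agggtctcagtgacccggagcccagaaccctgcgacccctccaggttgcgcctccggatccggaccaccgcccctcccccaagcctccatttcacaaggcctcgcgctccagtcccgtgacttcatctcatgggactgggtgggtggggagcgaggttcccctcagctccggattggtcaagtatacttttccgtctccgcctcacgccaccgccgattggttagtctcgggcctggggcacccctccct
Blvra (chr2:127070407-127070656, plus strand): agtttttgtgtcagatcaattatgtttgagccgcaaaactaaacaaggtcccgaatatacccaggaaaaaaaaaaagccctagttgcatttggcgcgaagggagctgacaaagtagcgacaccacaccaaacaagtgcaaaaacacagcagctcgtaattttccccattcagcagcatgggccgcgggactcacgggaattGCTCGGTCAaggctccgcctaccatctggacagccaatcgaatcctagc
Blvrb, first start (chr7:27447728-27447977, plus strand): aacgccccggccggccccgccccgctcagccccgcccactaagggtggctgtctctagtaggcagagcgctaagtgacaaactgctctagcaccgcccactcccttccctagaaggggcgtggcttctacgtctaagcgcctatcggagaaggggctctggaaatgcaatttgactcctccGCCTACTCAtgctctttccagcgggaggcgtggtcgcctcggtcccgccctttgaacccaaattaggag

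The Blvra match reads TGACCGAGC on the strand opposite to the gene, with its bases 41 to 49 before the start, and the nearest listed peak was 923 kb from Blvra. The Blvrb match shown reads TGAGTAGGC on the opposite strand and fits the looser form alone, as do TGATAGAGC and TGAACTGGC on the gene's strand in the window of the other Blvrb start. The Ftl1 stretch has no capitals: neither form was found in it. These letters are matches in a window, not binding sites, and they say nothing about the sequence under the peaks.

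Slc48a1 encodes a transporter, also called HRG1, that carries heme from lysosomes into the cytosol (NCBI gene 67739; chromosome 15, 97784365 to 97792692). Its peak (97786750 to 97787113) lay inside the gene, 2.58 kb from the nearer end and 31.0% of the way along it, with −log10 p of 28.1 and 17.6 and an IDR of 0.00141. It ranked 68th of 363 by the smaller value, behind the ferritin genes and ahead of Blvrb (121st) and both Hmox1 sites (132nd and 161st). The nearest other protein-coding gene was Hdac7, a histone deacetylase gene, 5.71 kb from the summit. Of the genes with peaks, Slc48a1 and Ftl1 had the closest Nrf2-null peaks, at 197 kb and 164 kb. For Hmox1, Blvrb and Fth1 the nearest Nrf2-null peak was 8656 kb or more away.

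**Figure D3:**
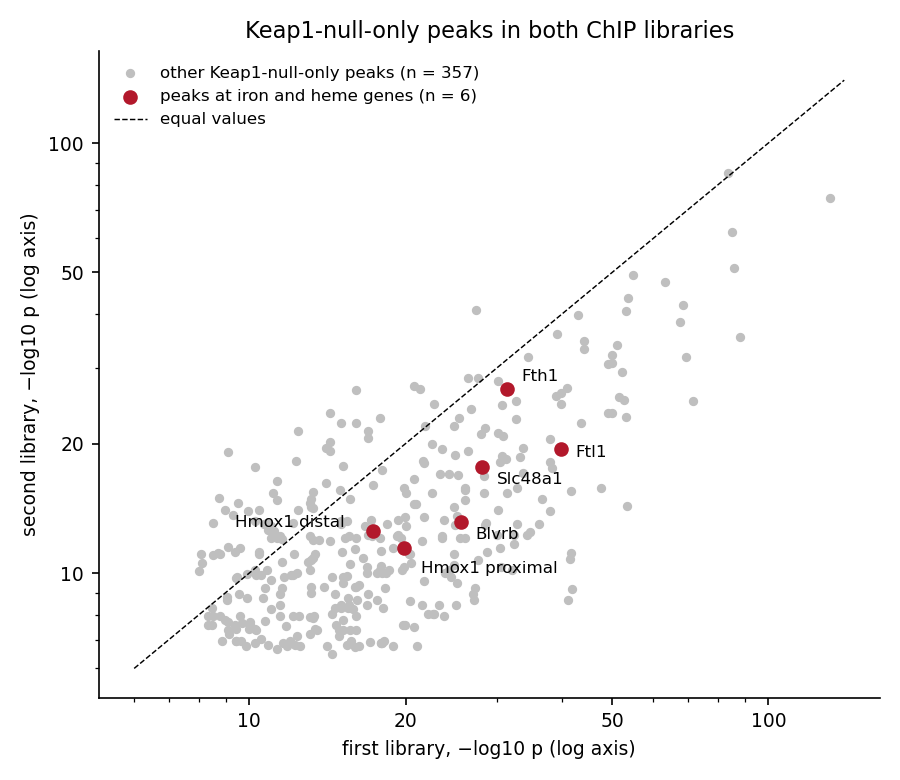
Values of −log10 p in the first (horizontal) and second (vertical) Keap1-null ChIP library, both on log axes, for the 6 peaks at iron and heme genes (red) and the other 357 Keap1-null-only peaks (grey); the dashed line marks equal values. All 6 red points lie below the line, from 17.3 to 39.8 in the first and 11.5 to 26.8 in the second library.

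The 6 peaks were of middle to high strength within their list and were all higher in the first library. Their −log10 p ran from 17.3 to 39.8 with a median of 26.9 in the first library and from 11.5 to 26.8 with a median of 15.4 in the second. The medians of all 363 Keap1-null-only peaks were 16.9 and 11.7, and their highest values 131 and 84.9. By the second library alone, the proximal Hmox1 peak ranked 184th of 363 and the other 5 ranked higher. The first-library value was higher at 6 of 6 peaks, but also at 296 of the 363 (81.5%), so this direction is common to the list. The ratio of first to second value was 1.17 at Fth1 and 2.05 at Ftl1, the lowest and highest of the 6, beside a median of 1.48 over the list; it is not a fold enrichment. All 6 peaks had an IDR of at most 0.01, as had 50.1% of Keap1-null-only peaks.

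The libraries placed the summits close together at each site. The summits of the first and second library were 1 bp apart at the distal and 6 bp at the proximal Hmox1 peak, 15 bp at Blvrb, 24 bp at Slc48a1 and 31 bp at Fth1. At Ftl1 they were 74 bp apart. The median over Keap1-null-only peaks was 32 bp, and 55 of the 363 (15.2%) had summits at least as far apart as those at Ftl1. The first library gave the wider peak at Fth1, Blvrb, Slc48a1 and both Hmox1 sites, and the second at Ftl1, with 388 bp in the first and 421 bp in the second. The share of all Keap1-null-only peaks that were wider in the first library was not computed, so this may be common to the list.

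**Figure D4:**
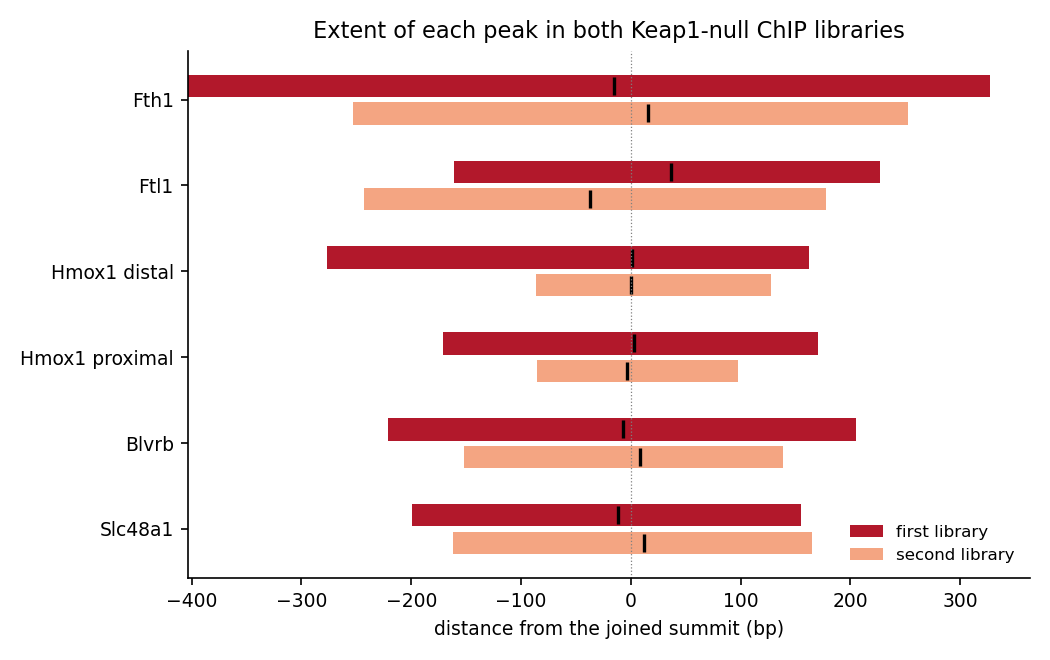
Extent of each of the 6 peaks in the first (dark) and second (light) Keap1-null ChIP library, as distance in bp from the joined summit, with each library's summit as a black tick. The ticks are 1 to 31 bp apart at 5 peaks and 74 bp apart at Ftl1.

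Genes for iron uptake, iron export, the last step of heme synthesis and porphyrin transport had no peak near them. Each of these functions is a single gene here. A Keap1-null summit in the window was found for 3.70% of all protein-coding genes, so having none is the common case. Tfrc, the transferrin receptor that brings iron into cells (NCBI gene 22042; chromosome 16, 32608896 to 32632794), was 4413 kb from the nearest Keap1-null peak. Slc40a1, which encodes ferroportin, the iron exporter (NCBI gene 53945; chromosome 1, 45908070 to 45926532), was 12103 kb from it. Abcb6, a porphyrin transporter gene (NCBI gene 74104; chromosome 1, 75171640 to 75180392), was 10884 kb away. Both chromosome 1 genes had a closer Nrf2-null peak, at 957 kb for Slc40a1 and 452 kb for Abcb6.

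Fech encodes ferrochelatase, which inserts iron into the porphyrin ring (NCBI gene 14151; chromosome 18, 64456542 to 64489098), and was 938 kb from the nearest Keap1-null peak. For Tfrc, Fech and Blvra the nearest Keap1-null peak overlapped the nearest Nrf2-null peak, and the nearest Keap1-null-only summits were 8396, 3326 and 9582 kb away. Over all 21631 protein-coding genes the median distance to the nearest Keap1-null-only summit was 2065 kb. Tfrc, Fech, Blvra, Slc40a1 and Abcb6 all lay farther from one than this median. How common such distances are among all genes was not computed. No gene of the set lay near the limit of the window: the farthest summit inside it was at 9.67 kb and the nearest gene without a peak was at 923 kb. The lists hold only peaks that passed the authors' threshold, so a missing peak means that none was listed at a depth that is not known.

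Of windows of 1, 10, 25, 50 and 100 kb, the 1 kb one alone changed the count. Within 10 kb of the gene span 5 of 10 genes had a Keap1-null summit, beside 1.47% of all protein-coding genes. Within 1 kb there were 2 of 10, Blvrb and Slc48a1, whose summits are inside the gene, beside 1.02%.

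**Figure D5:**
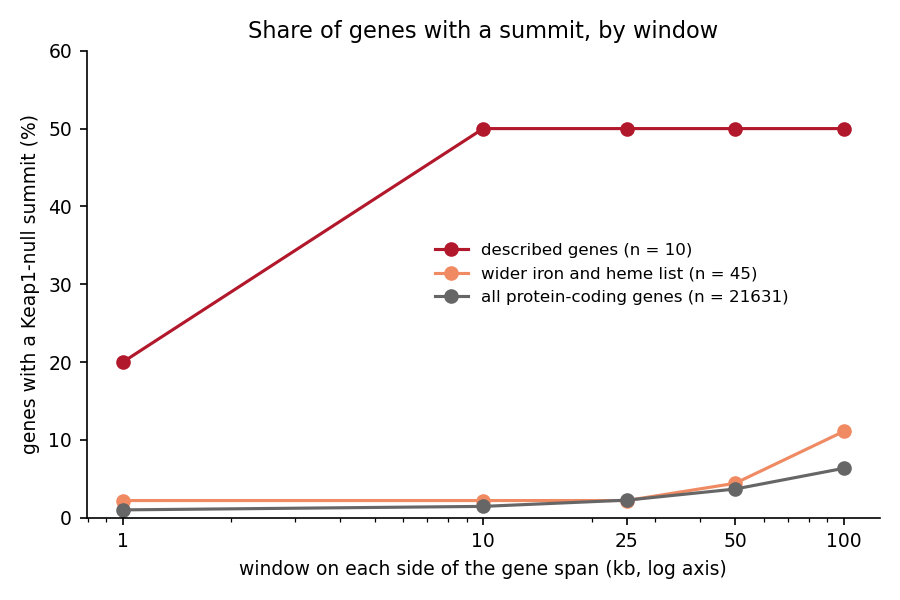
Share of genes, in percent, with a Keap1-null summit inside the gene span extended by 1 to 100 kb on each side (log axis), for the 10 described genes, the wider iron and heme list of 45 genes and all 21631 protein-coding genes. The 10 genes stay at 50% from 10 kb on, while the wider list stays at 11.1% or less and all protein-coding genes at 6.36% or less.

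A wider list of iron and heme genes, chosen with earlier results of these data known, was close to the background within 50 kb. Of 45 further genes, 2 had a Keap1-null summit within 50 kb (4.44%), beside 3.70% of all protein-coding genes, and 0 had an Nrf2-null summit. One was Tmprss6, a protease gene of hepcidin control, with a peak inside the gene at −log10 p of 9.52 and 14.5 and an IDR of 0.0273. The other was Glrx5, a glutaredoxin gene of iron-sulfur cluster assembly, whose peak lay 49.0 kb from it and inside Syne3, at 20.4 and 8.63 with an IDR of 0.0139. None of the 10 genes for iron uptake and reduction, 8 for heme synthesis or 8 for heme breakdown and transport had a peak. Nor had any of the 4 for storage and chaperones or 3 for iron sensing. In the export and hepcidin group 1 of 7 genes had a peak, and in iron-sulfur cluster assembly 1 of 5. Beside 3.70% of all protein-coding genes, counts of 0 in groups this small are close to the background. By the smaller value the Tmprss6 and Glrx5 peaks ranked below all 6 peaks of the described genes, at 233rd and 271st of 363. Single libraries did not all give this order. By the second library Tmprss6 ranked 113th, ahead of Blvrb (137th) and both Hmox1 sites (153rd and 184th), and Glrx5 276th. By the first library Glrx5 ranked 139th, ahead of both Hmox1 sites (146th and 176th), and Tmprss6 331st.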

How the data were processed

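The submitters' processing notes name MACS2 2.2.7.1, SAMtools 1.6, BWA 0.7.17 and Trim Galore 0.6.10, with genome build mm10. Their settings, and whether inputs served as background, are unstated there. The authors deposited 1 peak list per genotype, which joins its 2 ChIP libraries in the column layout of the IDR procedure. The deposited values are −log10 p per library, −log10 IDR and an IDR score capped at 1000; the highest IDR listed is 0.05. Library columns name no bench and are called first and second. Depth is unknown.

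Summits were placed against a RefSeq gene table of GRCm38.p6, which is mm10, with spans but no exons. Overlap meant at least 1 bp. Positions are 1-based. Strand came from start windows, where given. Ranks are within the Keap1-null-only peaks. The 10 genes, the wider list and the cell markers were chosen with earlier results of these data known. Named genes are the 10, every nearer protein-coding neighbour, and wider-list genes with a summit within 50 kb; next neighbours, the pseudogene and Sdc4 were added after their values were seen. No statistical test was run. Window assignment was tested on simulated data. Alternatives were other windows, an IDR of at most 0.01, other overlap rules, all genes, start sites and other motifs. Computation used Python 3.11.15, pandas 2.3.3 and numpy 2.4.6.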

Additional observations from a re-analysis of the deposited data

How the results depend on the processing

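Of 34 alternatives, 27 left the count within 1.5 times of the reported one. Many of these set 0 against 0, for the Nrf2-null list and the overlap rules, and could hardly move. Counts of genes and of peaks also share the same windows, so the total is no measure of robustness. With a 1 kb window the genes with a Keap1-null summit fell from 5 to 2 and their peaks from 6 to 2, because the other summits lie 1100 bp or more from the gene. Windows of 10, 25 and 100 kb, an IDR of at most 0.01 and counting any base of the peak gave 5 genes and 6 peaks each. The Nrf2-null list gave 0 genes under all of these. No overlap rule paired any of the 6 peaks with an Nrf2-null peak. By the 1 bp rule, 363 of all 469 Keap1-null peaks also had no such partner. With all genes in place of protein-coding ones, 4 of 5 genes still had a peak with no nearer gene; with start sites the count was 3, all 3 of those with a start window. The wider list had 1 gene with a peak at 10 kb (2.22%, beside 1.47% of all protein-coding genes), 5 at 100 kb (11.1%, beside 6.36%) and 0 at an IDR of at most 0.01. The 100 kb window added Hmox2, Iscu and Cp, named after their values were seen. The Cp peak was shared, with −log10 p of 9.31 and 24.7 in the Keap1-null list and 21.7 and 54.3 in the Nrf2-null list. Cp was the 1 wider-list gene with an Nrf2-null summit within 100 kb (2.22%, beside 1.22% of all protein-coding genes). For start windows, 1 gene held TGACNNNGC, 2 held TGANNNNGC and 0 held TGACTCAGC. Motif distances from the summit were not run, since they need the sequence under the peaks. No paired analysis was possible because the libraries of a genotype are joined and bench numbers are not in the columns. Single libraries were not left out, since a peak is listed only when both have it. What was not listed cannot be told apart from what the unknown depth missed.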
